A study of Mus musculus with 8 samples.

Results

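The genes of mitochondrial ribosomal proteins were taken as every gene whose symbol begins with Mrps or Mrpl followed by a number, among rows of the deposited table that carry exactly 1 gene symbol. For the 8 genes with 2 such rows, the brighter row on average was used. This gave 77 of the 19938 genes on the table, 29 with a small subunit symbol (Mrps) and 48 with a large subunit symbol (Mrpl). RNA of whole hearts was hybridised to Affymetrix arrays, 4 hearts with the genotype MHC-Plin5 and 4 with the genotype control. All 8 mice were c57/bl males aged 12 weeks, and the hearts are labelled as fasted. The labels describe overexpression specific to cardiomyocytes of Plin5, the gene of the lipid droplet protein perilipin 5. MHC in such names usually stands for the promoter of a myosin heavy chain gene, which the labels do not spell out. Whether the mice descend from a single founder line, and what the control mice carry, is not given in the sources used here. Every difference below is the MHC-Plin5 mean minus that of the controls, in log2 units. A gene was called where its limma p, adjusted by Benjamini-Hochberg over all 19938 genes, was under 0.05.

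Mitochondria carry ribosomes of their own, which translate the few messages of the mitochondrial genome, all of them subunits of the respiratory chain and of ATP synthase. The ribosomal RNAs come from the mitochondrial genome, while every protein of these ribosomes is encoded in the nucleus, made in the cytosol and imported. The small subunit decodes the message and the large subunit joins the amino acids. Some of the proteins have bacterial counterparts and others occur only in mitochondria. In the heart, which is rich in mitochondria, inherited defects of several of these proteins cause cardiomyopathy.

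The labels were checked on Plin5, which lay between 8.58 and 9.04 in the control hearts and between 12.08 and 12.69 in the MHC-Plin5 hearts. Array medians over all rows were 5.99 to 6.04 in 6 hearts, 6.25 in control 2 and 6.18 in MHC-Plin5 4. Pearson correlations between hearts ran from 0.974 to 0.995. The tissue label was checked on 10 cardiomyocyte markers, whose mean log2 level was 13.55 to 13.60 in control hearts and 13.30 to 13.59 in MHC-Plin5 hearts. In whole hearts, fewer cells of a type and less RNA per cell cannot be told apart. The 4 arrays per group limit the precision.

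Mitochondrial ribosomal protein genes differed little between the groups, and most of the small differences lay below 0. Only Mrps18b was called, and it was higher. In limma, 1 of the 77 genes was called higher, where 2.08% of all genes were, and 0 were called lower, where 1.17% of all genes were. In either direction this was 1.3% of the ribosomal protein genes and 3.25% of all genes. At an unadjusted p under 0.05, 14 genes were lower and 3 higher, or 18.2% and 3.9% of them, against 7.86% and 8.69% of all genes. The 77 differences ran from -0.58 to 0.41 with a median of -0.12, beside a median of -0.03 over all genes. Of them, 53 lay below 0, or 68.8%, against 57.5% of all genes. Differences past 0.5 in size were found for Mrpl14 and Mrps35 alone, and 56 of the 77 were within 0.25 of 0. Of all 19938 genes, 1162 were past 0.5 and 15715 within 0.25, so closeness to 0 was not particular to the ribosomal protein genes. All MHC-Plin5 hearts lay below all control hearts in 11 genes, or 14.3%, against 5.0% of all genes. They all lay above in 2 genes, or 2.6%, against 6.24%. Among the 8899 genes with a mean level of at least 7, which include 76 of the 77, the median difference was 0.02. Of these genes, 45.7% lay below 0 and 11.1% were lower at an unadjusted p under 0.05. Their non-overlapping shares were 7.47% lower and 11.9% higher. In Mrpl47, 1 of the 11, the groups were apart by only 3e-06, so that they touched at the precision of the other values. With each array centred on its median, 2 genes, or 2.6%, had groups apart on the lower side, against 4.02% of all genes. Leaving out a heart raised the share of all genes as well. The count was 17 without control 4 (22.1%, against 8.32% of all genes), 20 without MHC-Plin5 1 (26% against 6.96%) and 16 without MHC-Plin5 4 (20.8% against 12.1%). On the higher side it was 4 without control 3 (5.19% against 7.22%) or MHC-Plin5 2 (5.19% against 7.4%). Leaving out MHC-Plin5 3 moved the median over the 77 genes to -0.04.

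**Figure D1:**
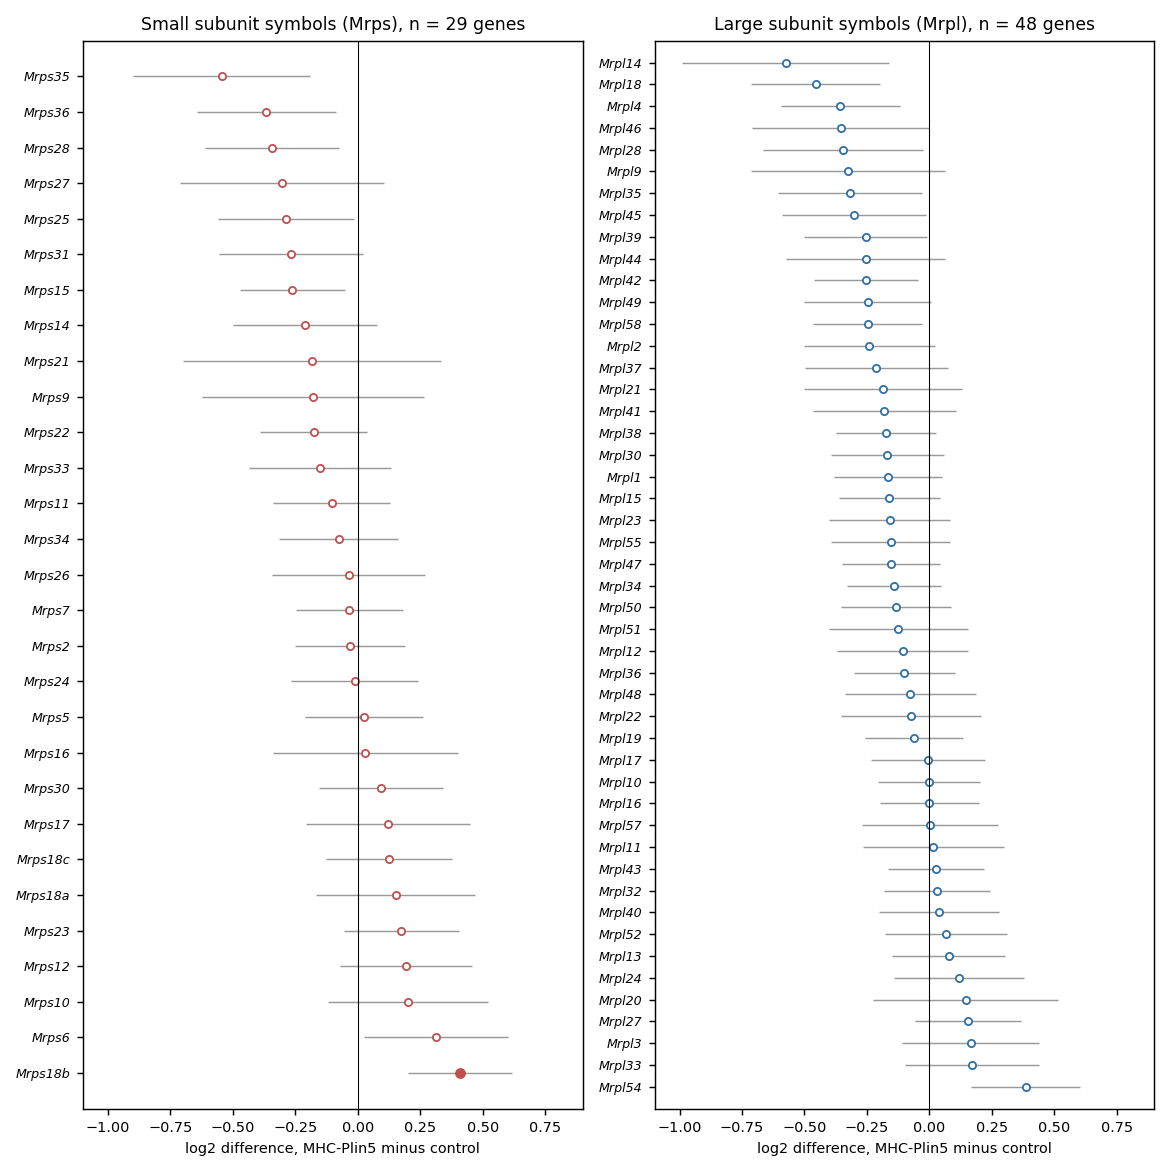
Log2 differences (MHC-Plin5 minus control, 4 hearts each) of the 29 genes with small subunit symbols and the 48 with large subunit symbols; points are estimates, bars are 95% confidence intervals from limma, and a filled point marks an adjusted p under 0.05. Mrps18b at 0.41 is the 1 filled point, and 53 of the 77 points lie below 0.

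Mrps18b encodes a small subunit protein that is 1 of 3 mitochondrial relatives of the bacterial protein S18. It was 1.33-fold higher in MHC-Plin5 hearts. The control hearts stood at 9.73, 9.83, 9.84 and 10.01 and the MHC-Plin5 hearts at 10.21, 10.33, 10.24 and 10.25. Every MHC-Plin5 heart lay above every control heart, and the MHC-Plin5 hearts spread less, with an SD of 0.05 against 0.12 (n = 4 each). It rose by 0.41 on the log2 scale (SE 0.09). The limma adjusted p was 0.0406, with an exact two-sided permutation p of 0.0286, the smallest that 4 against 4 hearts allow. Every gene whose groups do not overlap has this permutation p, which is not adjusted and adds nothing to the lack of overlap. The call ended with control 1 (limma adjusted p = 0.132), control 2 (0.0885), control 3 (0.121) or control 4 (0.0510) left out, and with MHC-Plin5 1 (0.0623), 2 (0.143) or 3 (0.0888) left out. It also ended after quantile normalization (0.0531) and without control 2 and MHC-Plin5 4 together (0.0759). The difference of Mrps18b stayed between 0.36 and 0.46 in all 19 alternatives. The gene Ppp1r10, which lies within 200 bases of Mrps18b in RefSeq, had a difference of 0.10 (SE 0.13, limma adjusted p = 0.781).

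The other relatives of S18 were not called. Mrps18c, the form that takes the place of S18 in the small subunit, stood at 8.54, 8.71, 8.91 and 8.99 in control hearts and at 8.98, 8.80, 8.88 and 8.99 in MHC-Plin5 hearts. Its groups overlapped, with a difference of 0.12 (95% interval -0.13 to 0.38). Mrps18a, which despite its symbol sits in the large subunit, stood at 9.89, 9.93, 10.06 and 10.07 in control hearts and at 10.20, 10.27, 9.69 and 10.40 in MHC-Plin5 hearts. MHC-Plin5 3 was the lowest of all 8 hearts and the other MHC-Plin5 hearts were the highest, and the difference of 0.15 had an interval of -0.17 to 0.47. The 3 pairs of these genes were compared within each heart, a comparison chosen after their values were seen. The Mrps18b level minus the Mrps18c level was 1.35 ± 0.14 in MHC-Plin5 and 1.06 ± 0.11 in control hearts (SD, n = 4 each; exact two-sided permutation p = 0.0286, or 0.0857 adjusted over the 3 pairs). The Mrps18b level minus the Mrps18a level was 0.12 ± 0.30 against -0.14 ± 0.07 (SD, n = 4 each; exact permutation p = 0.0857, adjusted 0.129). For Mrps18a minus Mrps18c the groups differed by 0.03 (exact permutation p = 0.914), less than the spread between hearts.

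The promoters of these genes are shown because Mrps18b alone was called among them. Each sequence is the 250 bases before the RefSeq start in build GRCm38.p6, read 5′ to 3′ on the gene's strand: chr17:35916441-35916690 on the minus strand for Mrps18b, chr17:46110754-46111003 on the plus strand for Mrps18a and chr5:100798509-100798758 on the plus strand for Mrps18c. Capitals mark matches, on either strand, to a motif read by NRF1 (GCGCATGC), by the ETS factor GABP (CCGGAAG), by YY1 (AAGATGGCG), by MYC (CACGTG) or by ATF4 (TGATGNAA).
Mrps18b: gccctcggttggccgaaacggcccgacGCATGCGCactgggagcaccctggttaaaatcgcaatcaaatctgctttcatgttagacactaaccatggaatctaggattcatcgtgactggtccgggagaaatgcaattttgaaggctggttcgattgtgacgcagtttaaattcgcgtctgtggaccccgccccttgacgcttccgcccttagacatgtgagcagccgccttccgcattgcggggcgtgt
Mrps18a: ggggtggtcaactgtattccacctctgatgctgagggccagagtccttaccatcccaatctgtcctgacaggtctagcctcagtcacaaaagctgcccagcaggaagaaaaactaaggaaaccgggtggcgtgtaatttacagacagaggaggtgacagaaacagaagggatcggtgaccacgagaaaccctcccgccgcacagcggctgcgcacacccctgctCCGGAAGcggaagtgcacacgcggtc
Mrps18c: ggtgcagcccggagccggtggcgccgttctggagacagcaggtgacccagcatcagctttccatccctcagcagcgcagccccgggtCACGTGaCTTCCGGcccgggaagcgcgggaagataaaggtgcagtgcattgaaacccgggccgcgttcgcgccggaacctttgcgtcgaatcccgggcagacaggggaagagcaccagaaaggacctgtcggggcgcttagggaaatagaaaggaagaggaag
The capitals are an NRF1 match in Mrps18b, a GABP match in Mrps18a, and a MYC match followed by a GABP match in Mrps18c. In the 50 bases after the start, Mrps18b held a further NRF1 match and a GABP match, and Mrps18a a YY1 match. These are matches of letters, not shown to be bound.

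In windows from 250 bases before to 50 after the start, 68 of the 77 genes had 74 promoters in the RefSeq table. The GABP motif was held by 33.8% of these windows, against 12.0% of windows of other genes on the array and 8.86% of all 32851 windows. For NRF1 the shares were 10.8%, 3.75% and 2.71%, and for YY1 10.8%, 1.9% and 1.4%. The MYC motif was held by 9.46% of them, 8.24% of windows of other genes on the array and 7.15% of all. The ATF4 motif was in 0 of the 74 windows, beside 3.09% of windows of other genes on the array. The ends of motifs can overlap, as those of GABP and YY1 at the letters AAG.

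**Figure D2:**
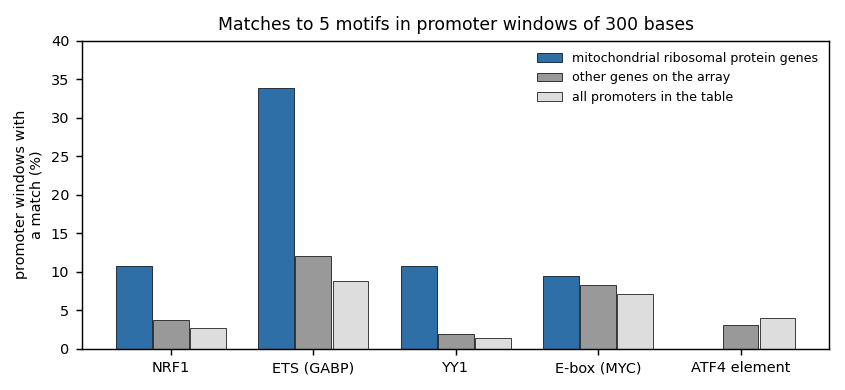
Share of promoter windows of 300 bases (percent, vertical axis) that hold a match to each of 5 motifs, for the mitochondrial ribosomal protein genes (74 windows), other genes on the array (19103 windows) and all windows of the RefSeq table (32851). The GABP motif has the tallest bar at 33.8%, and the ATF4 motif has no bar for the ribosomal protein genes.

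Besides Mrps18b, the small subunit symbols with the highest differences were Mrps6, Mrps10, Mrps12 and Mrps23, and none of these was called. Mrps6, the counterpart of bacterial S6, had 0.31 (SE 0.13, limma adjusted p = 0.258). In RefSeq it overlaps Slc5a3, a myo-inositol transporter gene with a difference of 0.51 (adjusted p = 0.386). The counterparts of bacterial S10 and S12, Mrps10 and Mrps12, had 0.20 and 0.19, and the mitochondrion-specific Mrps23 had 0.17. S12 lies at the decoding centre, where codon and tRNA meet.

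At the other end stood Mrps35, a mitochondrion-specific protein of the small subunit. The control hearts had 9.19, 9.33, 9.25 and 9.001 and the MHC-Plin5 hearts 8.89, 8.40, 8.30 and 9.002. MHC-Plin5 2 and 3 were far below the controls, while MHC-Plin5 4 was level with control 4. The difference of -0.55 (SE 0.16) had a limma adjusted p of 0.102. It was called without MHC-Plin5 4 (-0.66, adjusted p = 0.0313) and with array weights (-0.61, 0.0216). Mrps28, the counterpart of bacterial S1, stood at 9.07, 8.92, 8.86 and 9.04 in control and at 8.78, 8.61, 8.32 and 8.81 in MHC-Plin5 hearts. These groups did not overlap, but at a limma adjusted p of 0.172 the gene, at -0.34 (SE 0.12), was not called. Mrps27, an RNA-binding protein with pentatricopeptide repeats, had -0.30 and Mrps25 had -0.29, both with overlapping groups. Mrps22, whose inherited defects include cardiomyopathy, had -0.18 (95% interval -0.39 to 0.04).

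Mrps36 carries a ribosomal symbol, but its protein is now known as a subunit of the 2-oxoglutarate dehydrogenase complex of the tricarboxylic acid cycle. Its control hearts lay at 8.45, 8.45, 8.54 and 8.57 and its MHC-Plin5 hearts at 8.44, 8.26, 7.96 and 7.89. The groups did not overlap, by a margin of 0.01 between MHC-Plin5 1 and the lowest control heart. The difference was -0.37 (SE 0.13, limma adjusted p = 0.164).

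In the large subunit, Mrpl54 had the highest difference and Mrpl14 the lowest. Mrpl54, a mitochondrion-specific protein, stood at 8.79, 8.83, 9.01 and 8.83 in control hearts and at 9.41, 9.24, 9.21 and 9.13 in MHC-Plin5 hearts. No MHC-Plin5 heart reached down to a control heart. The difference of 0.38 (SE 0.10, limma adjusted p = 0.0642) was called without MHC-Plin5 4 (0.43, adjusted p = 0.0376). Mrpl54 was also called with array weights (0.0274), an intensity trend (0.0479) and a filter at a mean of 7 (0.0318). Its neighbour Apba3, within 200 bases, had 0.22 (adjusted p = 0.366). Mrpl33 had 0.17, Mrpl3 0.17, Mrpl27 0.15 and Mrpl20 0.14, all with overlapping groups and with no order among them beyond their errors. With single hearts left out, Mrpl20 ran from 0.0256 (without control 4) to 0.29 (without control 2) and Mrpl33 from 0.10 (without MHC-Plin5 3) to 0.28 (without MHC-Plin5 4). The Mrpl27 row used lies among genes of another chromosome in the array order, and the other row of Mrpl27 gave 0.06. Mrpl27 is the counterpart of a bacterial protein that reaches into the site of peptide bond formation. Mrpl3 is among the genes whose defects cause cardiomyopathy, and its interval ran from -0.11 to 0.44.

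Mrpl14, a protein at the interface to the small subunit, had the largest difference in size of the 77. The control hearts stood at 10.09, 9.96, 10.05 and 9.92 and the MHC-Plin5 hearts at 9.60, 9.16, 8.97 and 9.99. Hearts 1, 2 and 3 of MHC-Plin5 lay below every control, and MHC-Plin5 4 lay within the control range. The SD was 0.46 in MHC-Plin5 and 0.08 in control hearts (n = 4 each). The difference of -0.58 (SE 0.19, limma adjusted p = 0.139) was called without MHC-Plin5 4 (-0.76, adjusted p = 0.0147). It was also called with array weights (-0.70, 0.0161) and without control 2 and MHC-Plin5 4 together (-0.78, 0.0378). Tmem63b, which overlaps Mrpl14 in RefSeq, had -0.43 (SE 0.15, adjusted p = 0.175).

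Mrpl18, which binds the 5S ribosomal RNA in bacteria, stood at 10.22, 10.07, 10.31 and 10.15 in control hearts and at 9.97, 9.58, 9.53 and 9.84 in MHC-Plin5 hearts. Its groups did not overlap. The difference was -0.46 (SE 0.12, limma adjusted p = 0.0642), and it was called without MHC-Plin5 1 (-0.54, adjusted p = 0.0373), without MHC-Plin5 4 (-0.49, 0.0492) or after quantile normalization (-0.50, 0.0418). Mrpl18 was also called with array weights (-0.52, adjusted p = 0.0147), an intensity trend (0.0422) and a filter at a mean of 7 (0.0367). Tcp1, a subunit of the cytosolic chaperonin, overlaps Mrpl18 in RefSeq and had a difference of 0.36 (SE 0.10, adjusted p = 0.0758). This pair lay on opposite sides of 0, with neither gene called. Among 35 such distinct pairs of a ribosomal protein gene and a measured neighbour within 200 bases or overlapping it, 12 lay on opposite sides of 0. The promoters of Mrpl14 (chr17:45686099-45686348, plus strand) and Mrpl18 (chr17:12916092-12916341, minus strand), the large subunit genes with the lowest differences, are given as above in GRCm38.p6, with a GABP match in capitals in Mrpl18 and 0 matches in Mrpl14.
Mrpl14: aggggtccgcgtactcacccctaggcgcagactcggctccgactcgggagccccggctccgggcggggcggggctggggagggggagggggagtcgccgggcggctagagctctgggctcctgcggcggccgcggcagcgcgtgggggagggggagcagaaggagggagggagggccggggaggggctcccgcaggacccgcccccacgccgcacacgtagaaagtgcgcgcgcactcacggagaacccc
Mrpl18: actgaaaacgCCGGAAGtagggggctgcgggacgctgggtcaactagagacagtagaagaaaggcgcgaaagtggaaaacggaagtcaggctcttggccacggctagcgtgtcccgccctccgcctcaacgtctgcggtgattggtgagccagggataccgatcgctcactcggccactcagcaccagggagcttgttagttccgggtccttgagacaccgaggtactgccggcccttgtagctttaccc

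Mrpl4, which lines the tunnel through which the new protein leaves, stood at 10.51, 10.40, 10.44 and 10.18 in control hearts and at 10.13, 9.88, 9.95 and 10.15 in MHC-Plin5 hearts. The groups did not overlap, and the difference of -0.36 (SE 0.11, limma adjusted p = 0.111) passed the threshold after quantile normalization (-0.41, adjusted p = 0.0485). Mrpl4 also passed it with array weights (-0.40, adjusted p = 0.0349). Mrpl46 and Mrpl28 had -0.36 and -0.35, with overlapping groups. The other genes whose groups were apart on the lower side were Mrpl34, Mrpl38, Mrpl39, Mrpl42, Mrpl58 and Mrps15, and by the margin of 3e-06 Mrpl47, with differences from -0.26 to -0.14. They are named here because of their values. Mrpl58 releases stalled peptides from the ribosome. Mrpl12, a protein of the stalk that recruits translation factors, had -0.11 (95% interval -0.37 to 0.16). Mrpl44, whose defects cause cardiomyopathy, had -0.26 (-0.57 to 0.06).

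**Figure D3:**
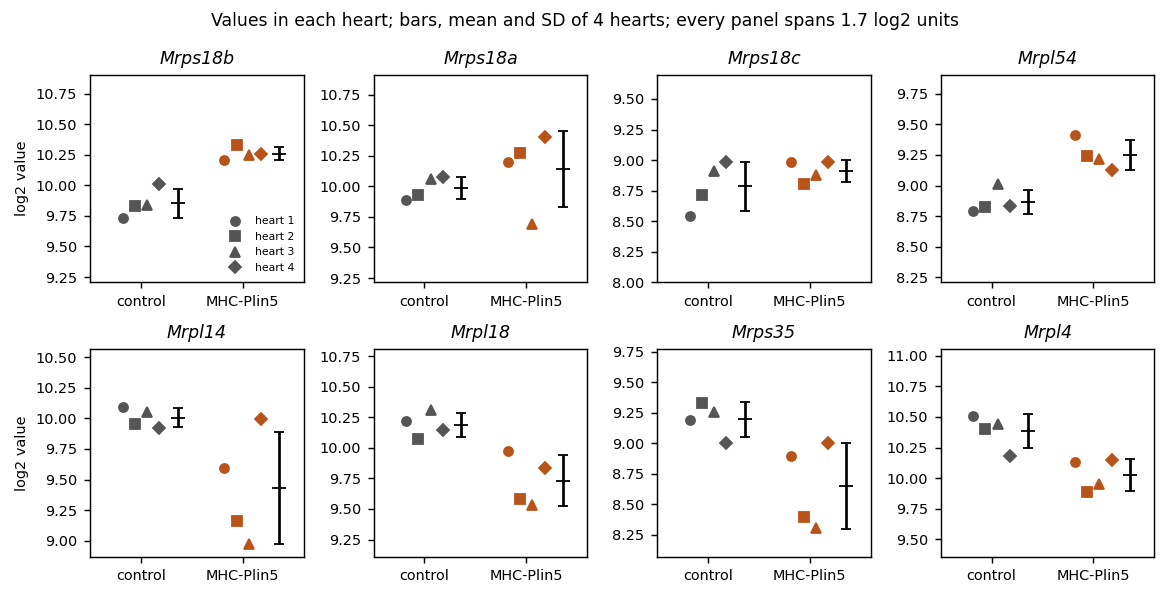
Log2 values of 8 genes in each heart (grey, control; orange, MHC-Plin5; symbols mark heart 1 to 4), with the mean and SD of 4 hearts as bars; every panel spans the same range. Mrps18b and Mrpl54 lie higher in every MHC-Plin5 heart, Mrpl18 and Mrpl4 lower in every one, and in Mrpl14 and Mrps35 MHC-Plin5 4 lies at the level of control hearts.

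The small and large subunits were then set against each other. By symbol, the median difference was -0.04 over 29 small subunit genes and -0.15 over 48 large subunit genes, with 18 and 35 genes below 0. The small subunit median was 0.0042 with each array centred on its median and ran from -0.10 (without MHC-Plin5 4) to -0.0135 (without MHC-Plin5 3) with single hearts left out. It was -0.0178 without control 3, -0.0783 without control 2, -0.0858 without control 4 and -0.0711 without MHC-Plin5 1. The large subunit median was -0.0877 without MHC-Plin5 3 and -0.11 with the centring. In each heart, the median deviation from the control mean was taken over the genes of each subunit. Small minus large was -0.07, 0.03, 0.02 and -0.02 in the control hearts, 1 to 4, and -0.02, 0.02, 0.08 and 0.14 in the MHC-Plin5 hearts. The groups overlapped. The gap between the subunit medians of the differences was 0.11, and without control 2 it was 0.050. Mrps30, like Mrps18a, belongs to the large subunit despite its symbol (difference 0.09, 95% interval -0.16 to 0.34). With these moved and Mrps36 left out, the medians were -0.06 over 26 small subunit genes and -0.14 over 50 large subunit genes. The 46 genes with a bacterial counterpart had a median of -0.09 and the 30 without one -0.16. Mrps18a and Mrps18b, though relatives of S18, were counted among those without, and Mrps18c among those with a counterpart.

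The MHC-Plin5 hearts were not alike. The median deviation over the 77 genes in hearts 1 to 4 was -0.03, 0.02, 0.04 and -0.05 for controls and 0.01, -0.17, -0.28 and -0.02 for MHC-Plin5. On the deposited values MHC-Plin5 2 and 3 thus lay below all controls, and MHC-Plin5 1 and 4 lay among them. Over all genes the same median was -0.04, 0.10, -0.02 and -0.05 in controls and -0.06, -0.06, -0.07 and 0.07 in MHC-Plin5 hearts. The deviations of the 77 genes were not corrected for these levels, and the place of MHC-Plin5 1 and 4 depends on them. MHC-Plin5 3 had the lowest value of all 8 hearts in 42 of the 77 genes, where it had the lowest in 22.6% of all genes and in 18% of genes with a mean level of at least 7. MHC-Plin5 1 was lowest in 0 of the 77, where it was lowest in 11.9% of all genes and in 6.96% of genes with a mean level of at least 7. MHC-Plin5 4 was highest in 17 of the 77 and in 21.5% of all genes, a like share. Markers of cell types also moved between these hearts. The median deviation of the 10 cardiomyocyte markers was -0.05, -0.09, -0.27 and -0.01 in MHC-Plin5 1 to 4 and -0.03 to 0.02 in control hearts. For 10 fibroblast markers it was -0.12, 0.21, 0.65 and 0.48, against -0.26 to 0.22 in control hearts, and for 9 macrophage markers 0.05, -0.07, 0.57 and 0.55, against -0.25 to 0.23. In limma 0 genes of these 3 lists were called, and 1, 1 and 0 had an unadjusted p under 0.05. The mean level of 6 atrial markers ran from 6.96 to 11.18 in control and from 7.62 to 11.31 in MHC-Plin5 hearts. Of 8 smooth muscle and pericyte markers 1 was called, the potassium channel gene Kcnj8, which fell by 0.43. Over all genes, 1.17% were called lower. Medians over 10 endothelial, 8 lymphocyte and 5 adipocyte markers were -0.11, -0.13 and -0.58, with 0 called. The adipocyte median was -0.16 without control 4, whose mean level of these markers was 7.18, against 5.45 to 6.07 in the other controls and 5.43 to 5.96 in MHC-Plin5 hearts. The part of cell composition in the ribosomal protein values was not tested.

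**Figure D4:**
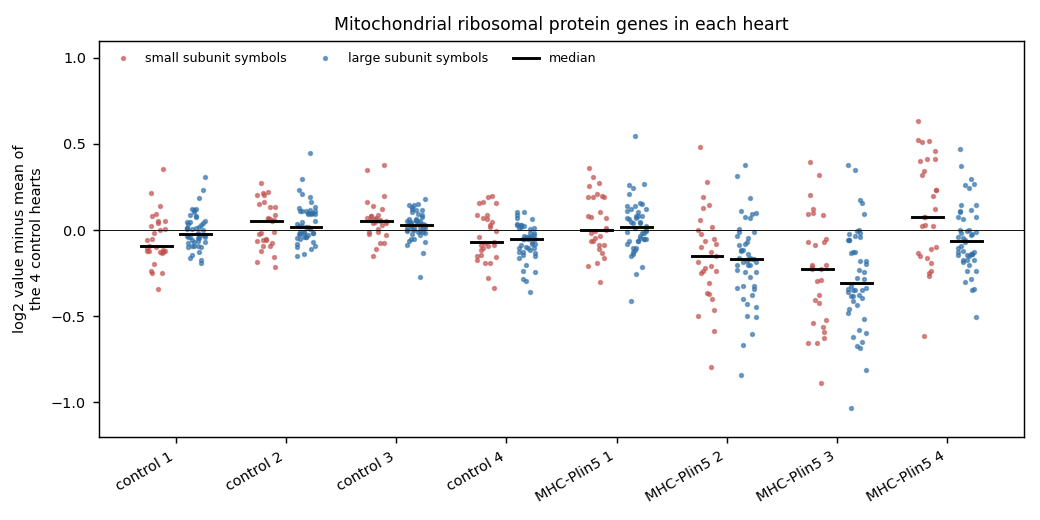
Log2 value minus the mean of the 4 control hearts (vertical axis) for each mitochondrial ribosomal protein gene in each of the 8 hearts; red points have small and blue points large subunit symbols, and black bars are their medians. The bars lie lowest in MHC-Plin5 3, at -0.23 for the small and -0.31 for the large subunit, and near 0 in MHC-Plin5 1.

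The rest of the mitochondrial translation machinery also had few called genes. Among 4 measured proteins of these ribosomes with other symbols, 0 were called. Dap3, a GTP-binding protein of the small subunit, stood at 9.84, 10.05, 9.88 and 9.87 in control and at 9.66, 9.51, 9.47 and 9.69 in MHC-Plin5 hearts. Its groups did not overlap, with a difference of -0.33 (SE 0.10, limma adjusted p = 0.105), and passed the threshold after quantile normalization (-0.37, 0.0451). Dap3 also passed it with array weights (0.0369) and a filter at a mean of 7 (0.0496). Ptcd3, a pentatricopeptide repeat protein of the small subunit, had -0.36 and Chchd1, another small subunit protein, 0.16, which was -0.020 with array weights, -0.12 without control 2 and MHC-Plin5 4, and -0.19 without MHC-Plin5 4. Of 25 measured genes of ribosome assembly 0 were called and 18 lay below 0, where 57.5% of all genes did. Their median was -0.14, and -0.0787 without MHC-Plin5 3. The smallest p values among them were those of Rpusd4 (-0.30), Noa1 (0.21) and Tfb1m (-0.30), which modifies the small ribosomal RNA.

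Mtif2, the initiation factor that brings the starting tRNA to the small subunit, was the 1 called gene among 18 translation factors, and it was lower. Over all genes, 1.17% were called lower. The control hearts stood at 9.33, 8.99, 9.13 and 8.96 and the MHC-Plin5 hearts at 8.71, 8.66, 8.41 and 8.55. Every MHC-Plin5 heart lay below every control heart. The gene fell by 0.52 on the log2 scale (SE 0.11), or 1.43-fold, with a limma adjusted p of 0.0339. The call ended with median centring (-0.48, adjusted p = 0.0759), with control 1 (0.105), control 2 (0.0579), control 3 (0.103) or control 4 (0.0565) left out, or with MHC-Plin5 2 (0.0853) or MHC-Plin5 3 (0.0918) left out. It also ended without control 2 and MHC-Plin5 4 together (0.0598). Of the 18 factors, 16 lay below 0, with a median of -0.18, where 57.5% of all genes and 45.7% of genes with a mean level of at least 7 lay below 0. Without MHC-Plin5 4, 3 factors were called lower, where 2.81% of all genes were. Without MHC-Plin5 1 it was 2, where 1.34% were. Lrpprc, which stabilises mitochondrial messages, had -0.40 (adjusted p = 0.126) and Tufm, the elongation factor that delivers tRNAs, -0.31 (adjusted p = 0.238). In MHC-Plin5 1 to 4 the median deviation of the factors was -0.06, -0.28, -0.34 and -0.02, with heart 2 and 3 lowest as for the ribosomal proteins.

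Among 9 measured genes of mitochondrial transcription and RNA processing 0 were called. Their median of -0.05 was -0.009 with each array centred on its median, -0.11 without MHC-Plin5 1 or MHC-Plin5 4, -0.10 without control 4 and -0.034 without control 2. Hsd17b10 (-0.33), Tefm (-0.20) and Elac2 (0.19) had the smallest p values. For the mitochondrial genome, 15 protein and ribosomal RNA genes were sought by symbol and 0 were found, so these were not analysed here. Of 12 regulators of mitochondrial protein genes, 4 were called higher and 0 lower, where 2.08% and 1.17% of all genes were. The count called lower was 1 with array weights, without MHC-Plin5 1 or without MHC-Plin5 4, where 3.72%, 1.34% and 2.81% of all genes were. This list was chosen with earlier results of these data known. Myc had a log2 difference of 2.30 (SE 0.21, limma adjusted p = 0.00023), Atf5 of 1.73, Atf4 of 1.501 and Ddit3, the stress factor CHOP, of 1.05. The genes of the factors whose motifs were frequent in the promoters had small differences. Gabpa had -0.07 (95% interval -0.32 to 0.18), Nrf1 -0.11 (-0.41 to 0.19) and Yy1 -0.02 (-0.24 to 0.20). Ppargc1a, a coactivator of mitochondrial biogenesis named here after its values were seen, had -0.61 (SE 0.17, limma adjusted p = 0.0855). Pprc1 of the same list went the other way, at 0.36 (SE 0.11, adjusted p = 0.121). Ppargc1b had -0.17 (SE 0.13, adjusted p = 0.575) and Esrra -0.04 (SE 0.20, adjusted p = 0.951).

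**Figure D5:**
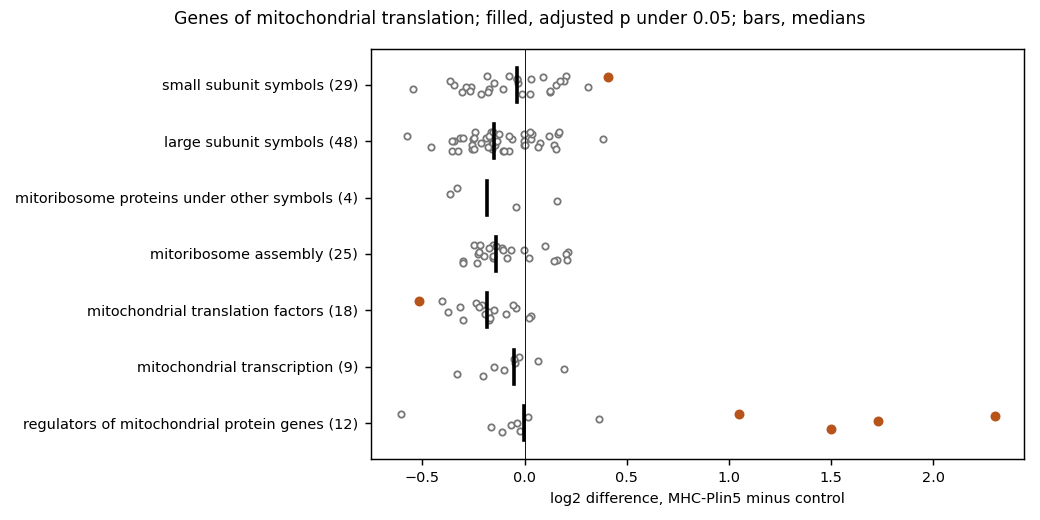
Log2 differences (horizontal axis, MHC-Plin5 minus control) of genes of mitochondrial translation, 1 point per gene, with the number of genes of each list in brackets; filled points have an adjusted p under 0.05 and bars are medians. Filled points are Mrps18b at 0.41, Mtif2 at -0.52 and 4 regulators above 1.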

How the data were processed

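The deposited values are log2 intensities. The submitters' processing notes name RMA and Affymetrix Expression Console, without version or settings. The 35556 rows ran from 2.02 to 14.66. GEO's platform annotation gave 1 symbol to 21789 rows, several to 1621 and none to 12146. A row shared by Mrpl53 and another gene was left out. All 77 genes matched RefSeq (GRCm38.p6) by gene ID. RefSeq promoters were searched for motifs on both strands.

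Every gene was fitted with lmFit and eBayes of limma 3.58.1 (R 4.3.3) on genotype alone, a script checked on simulated data. Medians of lists carry no test. The members and lists were chosen with earlier results of these data known. Genes named were called genes, the 5 highest and 5 lowest differences of each subunit, 9 genes of known role, and per list the called genes and the 3 smallest p values. Alternatives were filters, normalizations, variance models, array weights, a covariate, a heart block, thresholds, rows per gene and hearts left out. Tables and plots used Python 3.11.15.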

Additional observations from a re-analysis of the deposited data

Results flagged for a closer look

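A heart far from the other 3 of its group was looked for in 90 groups of 4 values, those of the named genes and of the medians over ribosomal protein genes, and found in 4; chance alone marks about 1 in 20 groups. Mrpl28 was 8.77 in control 4 and 9.14 to 9.18 in the other control hearts. Mrps22 was 8.39 in MHC-Plin5 1 and 8.19 to 8.22 in the other MHC-Plin5 hearts. Tufm was 10.74 in control 1 and 10.60 to 10.61 in the other control hearts. Atf4 was 7.20 in control 1 and 7.48 to 7.52 in the other control hearts.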

How the results depend on the processing

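The share of all genes called also moved with the setting: 3.72% were called lower and 4.43% higher with array weights, 1.78% and 2.19% after quantile normalization, 2.81% and 3.08% without MHC-Plin5 4, 0.281% to 1.34% and 0.853% to 2.07% with another heart left out, and 1.36% to 2.98% and 2.18% to 5.87% with the intensity trend, the filter at a mean of 7, an adjusted p under 0.1 or without the 2 arrays with the highest medians. The count of ribosomal protein genes called lower (0) was 4 with array weights, 2 after quantile normalization, and 1 with an intensity trend and robust variances, with a filter at a mean of 7, without the 2 arrays with the highest medians or at an adjusted p under 0.1. The count called higher (1) was 2 with array weights, with the intensity trend, with the filter at a mean of 7 or at an adjusted p under 0.1. It was 0 after quantile normalization, without the 2 arrays with the highest medians or at an adjusted p under 0.01. With single hearts left out the counts ran from 0 to 3 lower and from 0 to 2 higher. The counts of groups apart then ran from 11 to 20 lower and from 2 to 4 higher, beside 5.78% to 12.1% of all genes lower and 6.99% to 9.33% higher, and median centring gave 2 lower, beside 4.02% of all genes. Small minus large (0.11) was 0.0502 with array weights and 0.0498 to 0.11 with single hearts left out. The cause of these shifts was not tested. The heart number as a replicate block left 0 genes called higher and gave Mrps18b an adjusted p of 0.0987 and Mtif2 0.0569 in limma. Deviations of same-numbered hearts correlated at 0.187, 0.025, -0.107 and -0.04, so the number was not taken to pair hearts. The 26 named ribosomal protein genes kept their sign in each of the 19 alternatives, except that Mrpl33 had 18, since the filter at a mean of 7 left it out. Chchd1 turned to -0.0198 with array weights and -0.12 without the 2 arrays with the highest medians, and ran from -0.19 to 0.3246 with single hearts left out, below 0 without MHC-Plin5 4. The difference between Mrps18a and Mrps18c turned to -0.0318 without those arrays and ran from -0.0528 to 0.1655 with single hearts left out, below 0 without MHC-Plin5 2, MHC-Plin5 4 or control 4. The number of arrays limits the precision.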

Other observations

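The genes with a GABP motif match in their promoter window, 25 of the 68 with a window, had a median log2 difference of -0.004, and the others -0.16. For the 8 genes with an NRF1 match the medians were -0.004 and -0.138, and for the 8 with a YY1 match -0.158 and -0.116. This split was made after the values were seen and has no test.

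Some rows that carry a ribosomal protein symbol lay away from their gene in the order of the array. The commonest chromosome among the 10 named rows on either side was that of the gene itself for 96.8% of rows. Only rows with 1 symbol and a chromosome in RefSeq were counted. For 7 of the 85 rows of the ribosomal protein genes it was another chromosome, and 4 of these were the rows kept. For Mrpl27 the kept row gave a difference of 0.15 and the row among its neighbours 0.06, for Mrpl41 -0.18 and -0.15, and for Mrps33 -0.15 and -0.14. Mrpl48 had no other row. What these rows measure was not tested. Both rows of Mrps5 lay among its neighbours and gave 0.03 and -0.06. With the rows among their own neighbours in place of those kept, an alternative chosen after seeing the data, the median over the ribosomal protein genes was -0.13 and 1 gene was called higher.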
